A study of Mus musculus with 4 samples.

Results

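The fibrillar collagen genes Col1a1, Col1a2, Col3a1, Col5a1, Col5a2, Col5a3, Col11a1 and Col27a1 were examined in mouse lung carrying 4T1 metastases. These 8 genes, of 56748 in the count table, were chosen by name after their counts in the saline and ADC/cmLumiOpto samples were known. Their levels and differences between the groups are therefore given as a description, with no test. Female BALB/cJ mice, 7 weeks of age at injection, received 2000000 4T1-FLuc cells through the tail vein in both groups, and 4T1-FLuc is a mouse triple-negative breast cancer line that carries firefly luciferase. The saline group (2 samples, labelled PBS control, for 3 weeks by the labels) had no active agent. The ADC/cmLumiOpto group (2 samples) received CD276-DM1, an anti-CD276 antibody carrying the microtubule inhibitor mertansine, together with cmLumiOpto, an antibody-decorated exosome-AAV vector that places the light-gated channel CoChR in cancer mitochondria under a cfos promoter, and the luminescent substrate ViviRen. The labels give 16 mg/kg of CD276-DM1 with cmLumi-Olap for 3 weeks, whereas the methods of the study give 8 mg/kg and do not mention Olap. No sample with either agent alone was analysed here, so the parts of the combination cannot be told apart.

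The labels describe tumour cells of the 4T1 line and the methods describe dissociated lung tissue. Both kinds of marker were present in each sample. Krt8, an epithelial keratin, was at 1118 CPM or more (CPM, counts scaled to library size after TMM normalisation), and Sftpc, a surfactant gene of alveolar type 2 cells, had 2585 counts or more. The libraries held between 15263375 and 19675436 counts, at which 3 counts correspond to 0.152 to 0.197 CPM, for counting error only. The saline samples differed from each other in normal lung markers, with a summed level of 10 alveolar type 2 genes of 1886 CPM in saline replicate 1 and 555 CPM in saline replicate 2. With edgeR's quasi-likelihood test, 0 of 15320 genes had an adjusted p under 0.05 (0% called, smallest adjusted p = 0.116), whereas 3553 genes had an unadjusted p under 0.05, the exact test of edgeR called 1170 and DESeq2 called 1332. Leaving out saline replicate 1 gave 218 called genes, saline replicate 2 gave 10, ADC/cmLumiOpto replicate 1 gave 5 and ADC/cmLumiOpto replicate 2 gave 0. The methods of the study call the samples of each group biological samples. The labels do not say whether samples of a group came from separate mice, so p-values measure the spread between these samples.

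Fibrillar collagens are secreted as procollagens, trimmed at both ends outside the cell, and packed side by side into banded fibrils that lysyl oxidases cross-link. Type I collagen, built from the products of Col1a1 and Col1a2, and type III collagen, from Col3a1, form the bulk of fibrils in lung interstitium and in tumour stroma, and fibroblasts are their main source. Type V chains (Col5a1, Col5a2, Col5a3) and type XI chains (Col11a1) co-assemble with them and limit fibril diameter, and type XXVII (Col27a1) is best known from cartilage. In bulk samples, fewer cells of a type and less RNA per cell cannot be told apart.

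Promoter sequences from RefSeq (GRCm38.p6) were matched by symbol for 6 of the 8 genes. The 250 bases before the annotated start are shown for 3 of them, Col3a1 with an AT-rich promoter and Col5a3 and Col11a1 with GC-rich ones. None of these 3 windows overlaps an exon of its gene in GENCODE M21. Capitals mark the motifs CCAAT (a NF-Y site), TATAA and GGGCGG (a GC box of the Sp family), searched on both strands. In Col3a1 the matches to TATAA on the plus and minus strands overlap.
Col3a1 (chr1:45311288-45311537, plus strand): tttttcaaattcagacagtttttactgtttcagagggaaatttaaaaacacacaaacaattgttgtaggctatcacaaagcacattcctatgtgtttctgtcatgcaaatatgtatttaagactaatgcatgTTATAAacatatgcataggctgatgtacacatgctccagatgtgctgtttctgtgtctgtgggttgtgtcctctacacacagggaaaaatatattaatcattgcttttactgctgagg
Col5a3 (chr9:20815068-20815317, minus strand): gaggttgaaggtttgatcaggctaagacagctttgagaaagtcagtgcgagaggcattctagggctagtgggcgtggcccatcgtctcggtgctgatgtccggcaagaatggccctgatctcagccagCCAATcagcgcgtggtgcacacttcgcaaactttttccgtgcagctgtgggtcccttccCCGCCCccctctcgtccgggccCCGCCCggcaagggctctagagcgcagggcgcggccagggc
Col11a1 (chr3:114030290-114030539, plus strand): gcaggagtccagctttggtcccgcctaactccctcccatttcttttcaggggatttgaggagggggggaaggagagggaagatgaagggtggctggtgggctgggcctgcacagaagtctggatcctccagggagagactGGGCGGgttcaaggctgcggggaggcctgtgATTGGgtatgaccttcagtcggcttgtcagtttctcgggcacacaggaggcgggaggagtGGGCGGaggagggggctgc

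CCAAT stood in 3 of the 6 windows, those of Col1a2, Col5a3 and Col11a1, against 33.8% of 32851 windows of the same length in the table. GGGCGG stood in 5 of the 6, the exception being Col3a1, against 32.7% of all windows. The bases after the annotated start of Col27a1, 1 of these 5, matched none of its protein-coding transcripts in GENCODE M21, so the place of its window is uncertain. Of the Col1a2 window, which is not shown, 125 bases lie within the first exon of the GENCODE principal transcript, so its matches are not all upstream of that start. TATAA stood in the Col3a1 window alone, against 22.8% of all windows. The GC content was 35.2% for Col3a1 and 62.8% and 62.4% for Col5a3 and Col11a1. These are matches of letters and not measured binding sites.

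All 8 fibrillar collagen genes together took 0.536% and 0.366% of all counts in saline replicates 1 and 2, and 0.175% and 0.147% in ADC/cmLumiOpto replicates 1 and 2. Both ADC/cmLumiOpto samples lay below both saline samples. Their summed level averaged 4574 ± 1150 CPM (SD, n = 2) with saline. After ADC/cmLumiOpto it averaged 1594 ± 256 CPM (SD, n = 2), 2.87-fold lower. The size of the difference varied widely between the genes, from Col11a1, the most different, to Col27a1, which lay between 2.83 and 3.50 CPM in all 4 samples.

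Col1a1 had the highest level per kilobase of the 8 genes in both saline samples. Col1a1 (ENSMUSG00000001506, chr11:94827050-94843868 in mm39, the build of the submitters' processing notes) encodes the α1 chain. It was at 2058 and 1362 CPM in saline replicates 1 and 2 and at 437 and 405 CPM in ADC/cmLumiOpto replicates 1 and 2. The lowest saline sample was 3.12 times the highest ADC/cmLumiOpto sample, and the saline replicates differed by 1.51 times. The fitted log2 fold change (log2FC, ADC/cmLumiOpto minus saline) of Col1a1 was -2.02 (standard error, SE, 0.24).

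Col1a2 (ENSMUSG00000029661, chr6:4504814-4541544), whose product is the α2 chain of the same trimer, was at 1246 and 767 CPM in the saline samples and 442 and 322 CPM in the ADC/cmLumiOpto samples. The groups did not overlap, but the gap of 1.74 times between the nearest samples was close to the 1.63 times between the saline replicates. The log2FC of Col1a2 was -1.40 (SE 0.28). Col1a1 had 1.65 and 1.78 counts for each count of Col1a2 under saline and 0.990 and 1.26 after ADC/cmLumiOpto, so that the ratio of the type I chains was lower in both treated samples.

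Col3a1 (ENSMUSG00000026043, chr1:45350698-45388866) makes type III collagen, which co-assembles with type I in compliant tissues such as lung. Its level was 1403 and 1000.5 CPM in the saline samples and 640.0 and 455 CPM in the ADC/cmLumiOpto samples. The log2FC of -1.13 (SE 0.25) was smaller in size than that of Col1a1. Col3a1 had 0.682 and 0.735 counts per Col1a1 count under saline and 1.47 and 1.12 after ADC/cmLumiOpto, so the minor partner by counts under saline exceeded Col1a1 in both treated samples.

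**Figure D1:**
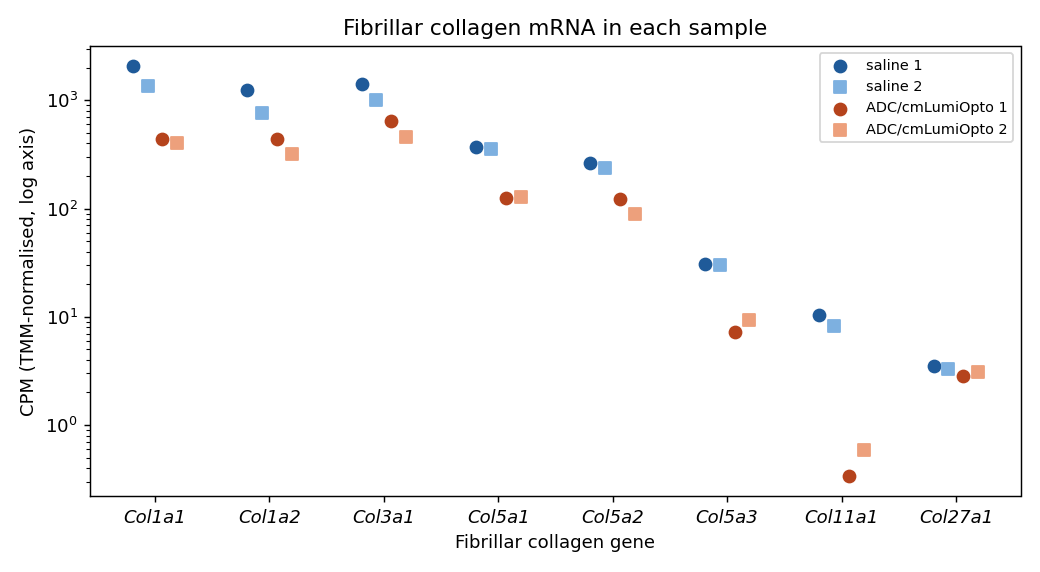
TMM-normalised CPM (log axis) of the 8 fibrillar collagen genes; each point is 1 sample, blue for saline and red for ADC/cmLumiOpto. The groups are separated for Col1a1 (437 CPM at most after treatment, 1362 CPM at least under saline) and widest apart for Col11a1, whereas the points of Col27a1 lie between 2.83 and 3.50 CPM.

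Type V collagen was represented by 3 genes. Col5a1 (ENSMUSG00000026837, chr2:27776437-27929526), whose chain nucleates type I fibrils, was at 368 and 358 CPM under saline and 125 and 128 CPM after ADC/cmLumiOpto. Replicates of Col5a1 agreed within 1.03 times in the saline group, and the nearest samples of the groups were 2.80 times apart. The log2FC was -1.52 (SE 0.15), and omitting any single sample gave values from -1.54 to -1.50.

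Col5a2 (ENSMUSG00000026042, chr1:45413481-45542442), the partner chain, was at 265 and 235 CPM under saline and 121 and 89.7 CPM after ADC/cmLumiOpto, a log2FC of -1.25 (SE 0.20). The gene is the neighbour of Col3a1 on the opposite strand, with a gap of 24614 bases and 0 listed genes between. Col5a2 had 0.189 and 0.235 counts per Col3a1 count under saline and 0.190 and 0.197 after ADC/cmLumiOpto, and these ratios overlapped between the groups.

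Col5a3 (ENSMUSG00000004098, chr9:20681346-20726363), an alternative type V chain, was far less abundant, at 30.7 and 29.8 CPM under saline and 7.25 and 9.36 CPM after ADC/cmLumiOpto. Its log2FC was -1.86 (SE 0.23). Relative to Col5a1, Col5a3 had 0.0834 and 0.0833 counts per count under saline and 0.0580 and 0.0732 after ADC/cmLumiOpto, lower in both treated samples.

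Col11a1 (ENSMUSG00000027966, chr3:113824189-114014367) encodes a chain of type XI collagen, a minor component of cartilage fibrils that is also known from activated fibroblasts of carcinomas. It had 166 and 123 counts under saline and 6 and 12 counts after ADC/cmLumiOpto, or 10.4 and 8.29 CPM against 0.340 and 0.585 CPM. Only 1 of the 2 treated samples reached the expression minimum of 0.589 CPM (before normalisation for composition), so the gene passed the filter through the saline group. The log2FC of -4.30 (SE 0.45) rests on few treated counts, and omitting any single sample gave values from -4.75 to -3.98.

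Col27a1 (ENSMUSG00000045672, chr4:63132241-63253228) stood apart from the other members. It had 56 and 49 counts under saline and 50 and 63 after ADC/cmLumiOpto, or 3.50 and 3.30 CPM against 2.83 and 3.07 CPM. The log2FC of -0.20 was smaller than its SE of 0.38. It was 0.11 once the trend of fold change on gene length was removed.

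**Figure D2:**
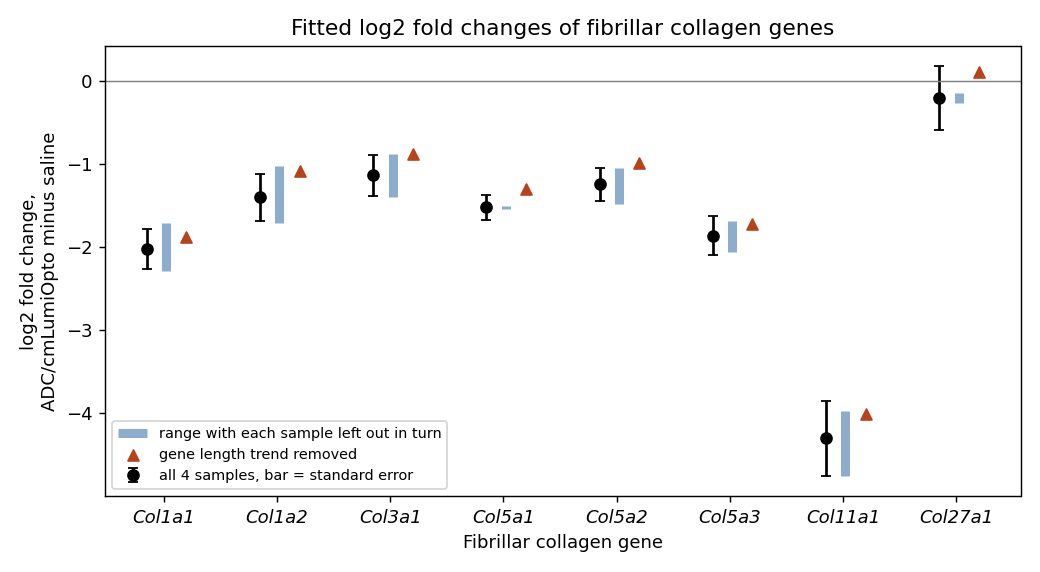
Fitted log2FC (ADC/cmLumiOpto minus saline) of each gene; black points with bars give the value with its SE, blue bars the range over the omission of single samples, and red triangles the value with the gene length trend removed. Col1a1 to Col11a1 lie below 0 in each of the 3, and Col27a1 moves from -0.20 to 0.11 with the length trend removed.

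The median log2FC of the 8 members was -1.46, beside a median of 0.028 for all genes tested. All 8 members passed the expression filter, and 8 had a log2FC below 0, against 48% of all genes tested. The groups did not overlap, with treatment lower, for 8 members, against 28.8% of genes. Since the genes were chosen with this contrast known, nothing is read from the counts.

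Gene length went with the fold changes of the whole table (Spearman's rho -0.34 across genes, which are not independent replicates), and fibrillar collagen genes are long, with a median gene model of 9703.5 bases against 4113 for all genes tested. With this trend removed the median of the members was -1.19.

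Levels of different genes were compared per kilobase. Per length of the principal transcript, the order in both saline samples was Col1a1 (347 and 230 CPM per kilobase), Col3a1 (252 and 180), Col1a2 (233 and 143), Col5a1 (43.8 and 42.6), Col5a2 (40.1 and 35.5), Col5a3 (5.02 and 4.87), Col11a1 (1.35 and 1.08) and Col27a1 (0.460 and 0.434). The ranges of Col1a1 and Col3a1 overlapped, as did those of Col3a1 and Col1a2, whereas the lower neighbours were separate. After ADC/cmLumiOpto, Col3a1 led in both samples (115 and 81.7 CPM per kilobase), the ranges of Col1a2 (82.6 and 60.2) and Col1a1 (73.7 and 68.4) overlapped, and Col27a1 (0.372 and 0.404) stood above Col11a1 (0.0444 and 0.0763).

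As a share of the summed level, Col1a1 made up 37.6% and 36.0% under saline and 24.1% and 28.4% after ADC/cmLumiOpto, while Col3a1 made up 27.3% and 28.2% and then 37.6% and 33.9%. The shift was in the same direction per length of the table's gene models, in which Col1a1 gave 49.5% and 46.9% and then 34.0% and 38.6%, although there Col1a1 still led in both treated samples. The gene model of Col3a1 is 9816 bases long and its principal transcript 5564, against 6563 and 5930 for Col1a1. Which of Col1a1 and Col3a1 led after treatment therefore depends on the length used.

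**Figure D3:**
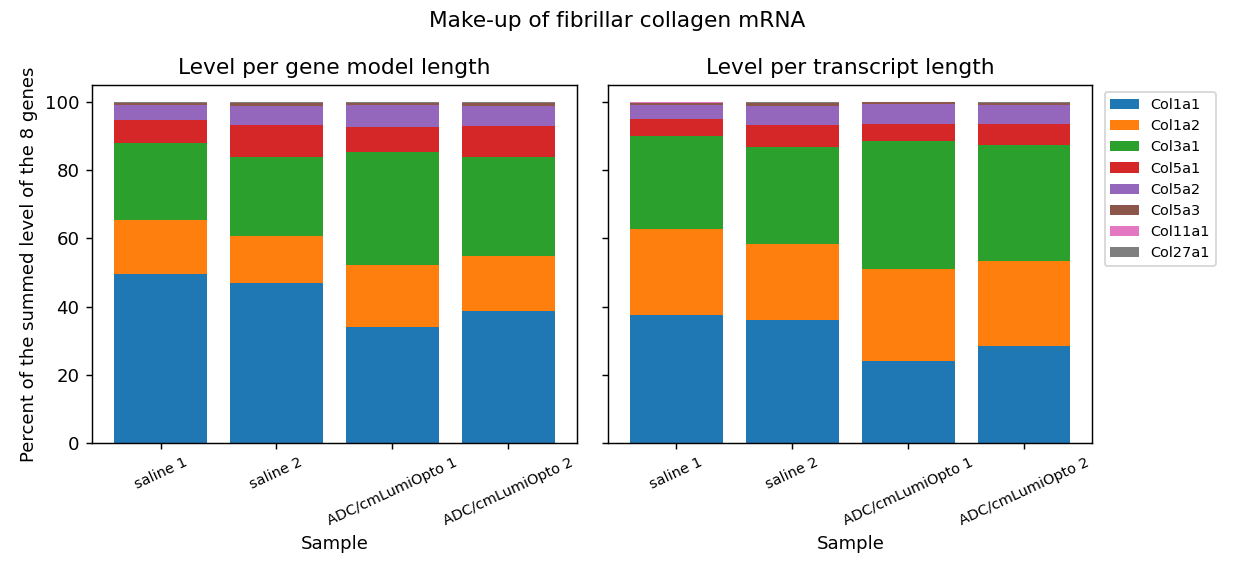
Share of each gene in the summed per-kilobase level of the 8 fibrillar collagen genes (percent), with 1 bar per sample, per gene model length on the left and per transcript length on the right. The Col1a1 share is smaller and the Col3a1 share larger in both ADC/cmLumiOpto samples than in both saline samples with either length.

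Of the 3 other fibrillar collagen genes, Col24a1 had 24 and 23 counts under saline and 12 and 12 after ADC/cmLumiOpto, a log2FC of -1.26 (SE 0.53, edgeR adjusted p = 0.221). Col11a2, whose chain pairs with that of Col11a1 in cartilage, had 10 and 15 counts and then 14 and 53, and the groups overlapped. Col2a1, the main cartilage collagen, had 1 count in all 4 samples together. Among the other 33 collagen genes (network, fibril-associated, beaded-filament and membrane types), 24 were tested, with 19 lower, 5 higher and a median log2FC of -0.59. At an unadjusted p under 0.05, 10 of these 24 were lower and 1 higher, where 12.2% of all genes tested were lower and 11% higher. Those with the smallest p were the fibril-associated Col12a1 (log2FC -1.85, SE 0.32), the beaded-filament Col6a3 (-1.38, SE 0.24), the basement membrane genes Col18a1 (-0.97, SE 0.25) and Col4a1 (-0.64, SE 0.19), and Col4a4 (1.43, SE 0.37), a chain of mature basement membrane and the higher of them. Their adjusted p values in edgeR's quasi-likelihood test were 0.116, 0.116, 0.123, 0.143 and 0.123, so none passed the threshold.

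Enzymes and chaperones of procollagen synthesis were lower more often than higher. All 20 genes of that list were tested, 13 lower and 7 higher, with a median log2FC of -0.22. Both treated samples were below both saline samples for 11 of these 20, against 28.8% of all genes tested. They were above for 1, and the share of all genes for that direction was not computed. At an unadjusted p under 0.05, 3 of 20 were lower and 0 higher, near the 12.2% of all genes that were lower. The median was -0.36 without ADC/cmLumiOpto replicate 1, -0.13 without ADC/cmLumiOpto replicate 2 and -0.13 with upper-quartile normalisation. Fkbp10, a prolyl isomerase of the endoplasmic reticulum needed for type I procollagen, was at 42.6 CPM on average under saline and 19.1 CPM after ADC/cmLumiOpto, a log2FC of -1.16 (edgeR adjusted p = 0.116). Creb3l1, a membrane-bound transcription factor that acts on Col1a1, had a log2FC of -1.12 and the lysyl hydroxylase Plod1 of -0.41 (edgeR adjusted p = 0.143 and 0.191). Serpinh1, the collagen chaperone HSP47, overlapped between the groups, at a mean of 422 CPM and 460 CPM (chosen after its values were seen).

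In the list of propeptide proteases, their enhancers and lysyl oxidases, 11 of 13 genes were tested, 10 lower and 1 higher, with a median log2FC of -0.50. At an unadjusted p under 0.05, 6 of 11 were lower and 1 higher, against 12.2% and 11% of all genes. The lysyl oxidases Loxl2 and Loxl1 had log2FC of -1.58 (SE 0.18) and -1.03 (SE 0.18), and Adamts2, which removes the amino-terminal propeptide of procollagen, -1.12 (SE 0.19). The edgeR adjusted p was 0.116 for these 3 genes. The single higher gene was Pcolce2, an enhancer of carboxy-terminal propeptide cleavage, at 0.85 (edgeR adjusted p = 0.116, named after its value was seen).

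Proteins that coat fibrils were mixed. Among 16 fibril-associated collagens and small leucine-rich proteoglycans, 11 were tested, 7 lower and 4 higher, with 4 in each direction at an unadjusted p under 0.05 (12.2% of all genes were lower and 11% higher). Col12a1 was lower, as given above. The proteoglycans Aspn and Podn were higher, with 20 and 20 counts under saline and 84 and 90 after ADC/cmLumiOpto for Aspn (log2FC 1.81, SE 0.41, edgeR adjusted p = 0.116) and a log2FC of 0.98 for Podn (edgeR adjusted p = 0.150).

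Of 9 collagen-degrading proteases, 8 were tested, 3 lower and 5 higher, with a median log2FC of 0.78 that was -0.066 without ADC/cmLumiOpto replicate 2, 0.52 without saline replicate 2 and 0.44 with the replicate block. At an unadjusted p under 0.05, 2 of 8 were lower and 3 higher, against 12.2% and 11% of all genes. Mmp2, a gelatinase made mainly by stromal cells, had 2878 and 1733 counts under saline and 683 and 878 after ADC/cmLumiOpto, a log2FC of -1.86 (SE 0.24). The membrane-type protease Mmp14 had a log2FC of -0.63 (SE 0.15) and Mmp15 of 0.85 (SE 0.21). The adjusted p values in edgeR were 0.116, 0.123 and 0.123.

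Of 12 collagen receptors, 10 were tested, with 7 lower, 3 higher and a median log2FC of -0.25, which was -0.42 without saline replicate 1, -0.37 without ADC/cmLumiOpto replicate 1, -0.16 with upper-quartile normalisation and -0.078 with the gene length trend removed. At an unadjusted p under 0.05, 2 of 10 were lower and 0 higher, against 12.2% and 11% of all genes. The mannose receptor Mrc1 of macrophages had a log2FC of -0.98 and the integrin subunit Itga2 of -0.50 (edgeR adjusted p = 0.145 and 0.153). Itga11, the integrin subunit of fibroblasts that binds type I collagen, had 19 and 24 counts under saline and 0 and 11 after ADC/cmLumiOpto (edgeR adjusted p = 0.251).

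The list of signals and transcription factors that act on fibrillar collagen genes had 20 tested genes, 16 lower and 4 higher. Their median log2FC was -0.36, and it ran from -0.44 without saline replicate 1 to -0.23 without saline replicate 2 when single samples were omitted. At an unadjusted p under 0.05, 6 of 20 were lower and 1 higher, against 12.2% and 11% of all genes. Runx2, a regulator of bone and stromal matrix genes, was at 57.7 CPM on average under saline and 26.3 CPM after treatment (log2FC -1.13, SE 0.22), Sox9, a regulator of type II and XI collagen genes, had a log2FC of -0.81 (SE 0.16), and the TGF-β transducer Smad3 one of -1.23. The edgeR adjusted p was 0.116 for these 3 genes. The NF-Y subunit genes Nfya, Nfyb and Nfyc had log2FC of 0.36, 0.12 and -0.36 (edgeR adjusted p = 0.377, 0.755 and 0.289; chosen after their values were seen).

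**Figure D4:**
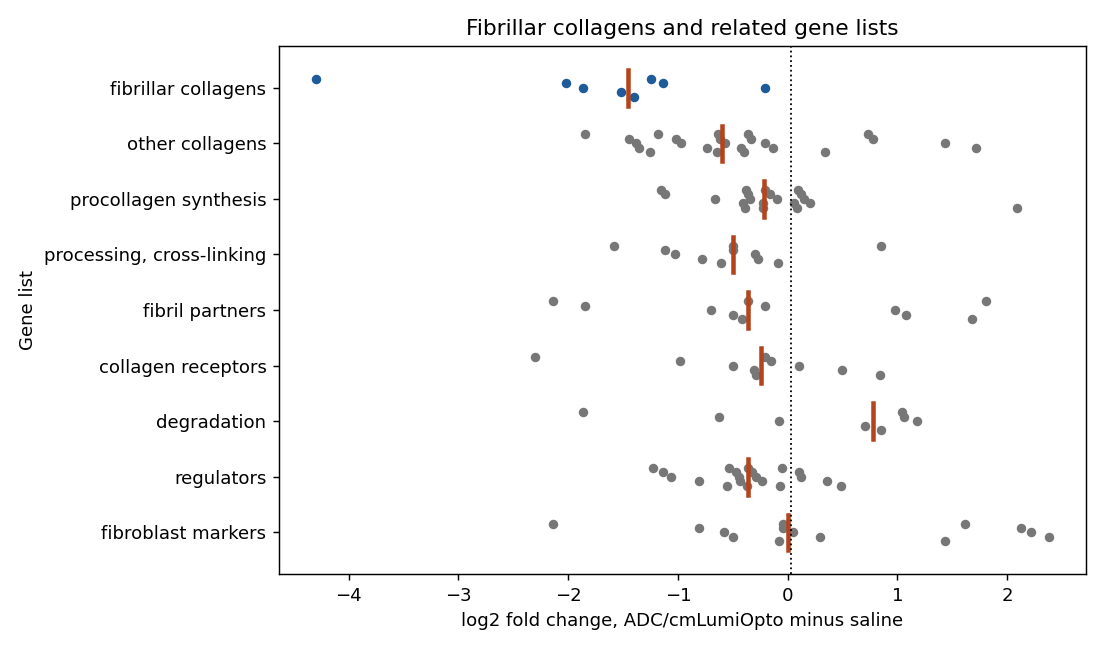
Log2FC (ADC/cmLumiOpto minus saline) of every tested gene in 9 gene lists, with 1 point per gene, a red bar at the median of the list and a dotted line at the median of all tested genes (0.028). The fibrillar collagens, which were chosen with this contrast known, have the lowest list median (-1.46). The fibroblast markers are spread on both sides of a median of 0.0021, which ran from -0.38 to 0.40 when single samples were omitted.

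Markers of the cell types that the tissue could hold were set beside the collagens. The 14 fibroblast markers had a median log2FC of 0.0021, with 7 lower and 7 higher. The sign of that median depended on single libraries, since it was -0.38 without ADC/cmLumiOpto replicate 1, -0.13 without saline replicate 2, 0.35 without ADC/cmLumiOpto replicate 2 and 0.40 without saline replicate 1. The markers summed to 1018 and 928 CPM under saline and 958 and 1068 CPM after ADC/cmLumiOpto, ranges that overlapped. Gsn, which led this list in level, was at 433 and 434 CPM under saline and 461 and 599 CPM after ADC/cmLumiOpto. The sums therefore rest in large part on that gene. None of the 14 was at 0 counts. The growth factor receptor Pdgfra was at 211 and 240.2 CPM under saline and 119 and 139 CPM after treatment (log2FC -0.81, edgeR adjusted p = 0.116), and Dcn, the proteoglycan decorin, at 126 and 91.9 CPM and then 79.6 and 74.4 CPM. Dpt and Tcf21, markers of resident fibroblasts, were on the other side, with 220 and 124 counts under saline and 751 and 519 after treatment for Dpt (log2FC 1.61) and 54 and 13 and then 184 and 194 for Tcf21 (2.21), with edgeR adjusted p = 0.116 and 0.123. These genes were named after their values were seen.

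The 10 smooth muscle and pericyte markers, all detected, summed to 219 and 253 CPM under saline and 186 and 163 CPM after treatment, with 5 lower and 5 higher. These sums did not overlap. Acta2, which led this list, was at 126 and 148 CPM under saline and 89.7 and 52.2 CPM after treatment (log2FC -0.95, edgeR adjusted p = 0.136). The 11 epithelial carcinoma markers summed to between 3717 and 3876 CPM under saline and between 3710 and 3834 CPM after ADC/cmLumiOpto. Of these, 6 were lower and 5 higher, and none was at 0. Several of them are also present in normal lung epithelium, so their sum does not measure tumour content alone. Markers of normal lung were higher in the treated samples, at 5205 to 6170 CPM against 555 to 1886 CPM for the 10 alveolar type 2 genes (8 higher), 899 to 957 CPM against 150 to 369 CPM for the 8 alveolar type 1 genes (8 higher), and 678 to 1024 CPM against 440 to 593 CPM for the 10 endothelial genes (9 higher). The sum of the 10 leukocyte genes was also higher in both treated samples, at 1598 and 4405 CPM against 1490 and 794 CPM. Of these genes 9 had a log2FC above 0, but both treated samples lay above both saline samples for only 5. At an unadjusted p under 0.05, 4 were higher and 0 lower, against 11% and 12.2% of all genes. S100a8, a neutrophil gene that led this list, had 63353 counts in ADC/cmLumiOpto replicate 2 and between 2526 and 7452 in the others. The part of these cell types in the lower collagen levels was not tested. Without saline replicate 1, the median log2FC of the 8 collagen genes was -1.34.

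**Figure D5:**
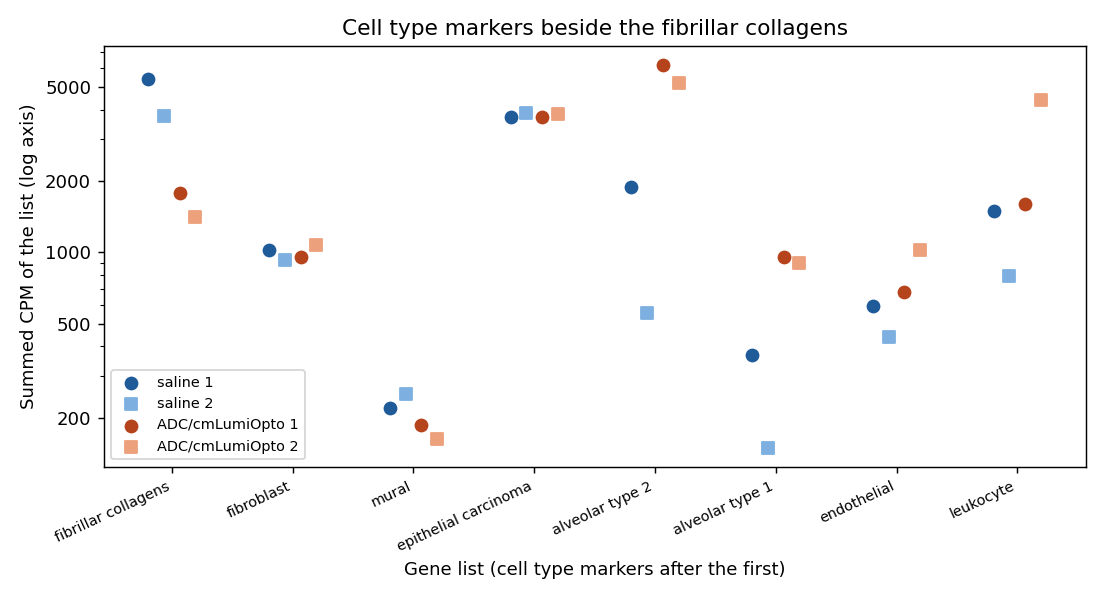
Summed CPM (log axis) of the fibrillar collagens and of 7 lists of cell type markers, with 1 point per sample, blue for saline and red for ADC/cmLumiOpto. The collagen sum is lower in both treated samples (1413 and 1776 CPM), and the alveolar, endothelial and leukocyte sums are higher in both. The sum of the carcinoma markers, several of which are also present in normal lung epithelium, lies between 3710 and 3876 CPM in all samples.

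The genes whose pattern over the 4 samples was closest to the median pattern of the fibrillar collagens were C4b, Siglec1, Aebp1, Ccn4, Col6a3 and Loxl2, taken from 7877 protein-coding genes with a mean of at least 20 CPM. Likeness was the root mean square difference of log2 CPM centred on the mean of each gene, which was between 0.11 and 0.16 for these 6 genes. C4b, a complement component that shares reads with its near-identical copy C4a and is uncertain for that reason, was at 328 and 328 CPM under saline and 139.7 and 117 CPM after ADC/cmLumiOpto. Aebp1, a secreted protein that binds fibrillar collagen, was at 132 and 95.8 CPM and then 41.4 and 42.8 CPM. Siglec1 (a macrophage lectin) was at 56.1 and 45.0 CPM and then 20.2 and 14.3 CPM, and Ccn4 (a matricellular WNT target) at 64.3 and 43.9 CPM and then 22.7 and 19.9 CPM. Col6a3 was at 137 and 90.8 CPM and then 47.5 and 40.3 CPM, and Loxl2 at 82.6 and 72.0 CPM and then 24.0 and 27.7 CPM. The edgeR adjusted p was 0.116 for all 6.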

How the data were processed

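Poly-A selected RNA of 2 saline and 2 ADC/cmLumiOpto samples, grouped by their labels, was sequenced (Illumina). The methods of the study give 4 samples per group, of which 2 per group were analysed here. The authors deposited whole-number counts of reads per gene without normalisation, with a gene model length in bases for each gene. The reads were aligned with HISAT2, to GRCm38 by the methods of the study and to mm39 by the submitters' processing notes, and the program that counted reads is not given in the sources used here. Of 52073 identifiers shared with GENCODE M21 (GRCm38), 1435 had the same start and end, so gene positions are given in mm39 and promoter sequences in GRCm38.p6. Transcript length is that of the longest APPRIS principal transcript in GENCODE M21.

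Counts were analysed in R 4.3.3 with edgeR 4.0.16 (filterByExpr with min.count 10 and min.total.count 15, TMM, glmQLFit and glmQLFTest, prior count 0.125) with Benjamini-Hochberg adjustment over all 15320 genes and a threshold of 0.05, and with DESeq2 1.42.0. The standard error is the size of the log2 fold change divided by the square root of F. On simulated data for this comparison (14965 genes tested), the quasi-likelihood test called 87% of 100 genes changed by 2 on the log2 scale. It called 21% of 100 changed by 1, with 17 false calls among the unchanged genes. The changed genes were drawn from those of higher expected count, and the counts were drawn with the fitted dispersions. These shares are therefore not the sensitivity of the test in the real data. Strand use in counting is not given in the sources used here, and the antisense genes over Col5a1 had at most 17 counts.

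The members and gene lists were chosen with earlier results of these data known. Genes named are all members, the other fibrillar collagens, the 3 genes of each list with the smallest p (5 for other collagens) and the 6 genes of most similar pattern. Also named are markers at 0, all cartilage and bone markers, and for some lists the marker that leads it in level. Other genes are marked as chosen after their values were seen. Alternatives were DESeq2, the exact test, other normalisations, other filters, protein-coding genes only, removal of a lowess trend (span 0.3) on gene length, a replicate block, a prior count of 2 and omission of each sample. The transcript length was added after seeing the data. Protein sequences were not analysed here.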

Additional observations from a re-analysis of the deposited data

How the results depend on the processing

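The number of called genes depended on the expression filter and on the test. It was 0 in edgeR's quasi-likelihood test, 1332 in DESeq2, 1170 in the exact test, 2259 in the quasi-likelihood test without the expression filter, and from 0 to 218 when single samples were omitted, where the lone sample of a group is assumed to vary like the others. The cause was not tested. With the replicate number as a block (replicate block) 607 genes were called, although the 2 pairs of samples share only a number (the deviations of same-numbered samples correlated at 0.099 across genes). The median log2 fold change of the members was -1.46, -1.19 with the gene length trend removed, and from -1.62 to -1.34 when single samples were omitted, and it kept its direction in every alternative run. The log2 fold change of Col27a1 was 0.11 with the gene length trend removed, and the other 7 members kept their direction throughout. The median of the collagen-degrading proteases ran from -0.066 to 0.87 when single samples were omitted. The ratio of the summed per-kilobase levels, saline over ADC/cmLumiOpto, was 3.02 per gene model and 2.85 per transcript. With at least 10 counts in every sample, Col11a1 was not tested. With 2 samples in a group, and at most 12 treated counts for Col11a1 and 63 for Col27a1, the values of these 2 genes are the least precise.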

Other observations

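Cartilage and bone genes had few counts. Of 8 such markers, Acan, Sp7 and Snorc had 0 counts in all 4 samples, and Matn1, Bglap and Comp had at most 2, 1 and 12 counts in any sample. Chad had 6 and 5 counts under saline against 23 and 27 after ADC/cmLumiOpto, and edgeR gave a log2 ratio of 1.86 (SE 0.59, adjusted p = 0.148). Only Ibsp, the gene of bone sialoprotein, had more than few counts, with 393 and 553 under saline against 176 and 184 after ADC/cmLumiOpto. Its log2 ratio in edgeR was -1.71 (SE 0.27, adjusted p = 0.116), opposite in direction to that of Chad.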
